A study of Mus musculus with 3 samples.

Results

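The contactins and the IgLON proteins are related adhesion molecules of the immunoglobulin superfamily that sit on the outer cell surface by a glycosylphosphatidylinositol (GPI) anchor. Contactins act largely in the nervous system, where contactin 2 pairs with the contactin-associated protein Cntnap2 beside the node of Ranvier and contactin 1 with Cntnap1 at the paranode, and several contactins bind receptor-type tyrosine phosphatases. IgLON proteins bind themselves and each other and shape neurite outgrowth and synapses. In the heart, Cntn2 is used as a marker of the Purkinje cells of the fast conduction system. The values described here are those of 10 genes, found by symbol among the 39179 genes of the deposited table, each of them once. They are 6 contactins (Cntn1 to Cntn6) and 4 IgLON genes (Ntm, Opcml, Lsamp and Negr1), and the question is whether the other 9 follow Cntn2, whose reporter defined the sort.

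Embryonic stem cells of 1 mouse line, Contactin2:eGFP with a lentiviral aMHC:mCherry reporter for the alpha myosin heavy chain promoter, were differentiated, exposed to the nitric oxide donor sodium nitroprusside from day 4 and sorted on day 25. Cells carrying eGFP with dim mCherry formed the GFP population, cells with mCherry the MHC population, and cells with neither the NEG population. The line, both reporters and the nitroprusside are common to all of them, and the construction of the Cntn2 reporter is not stated in the labels. With 1 library per population, differences have no replicate check and carry no p-value, and each interval is a 95% interval for counting error in these libraries only.

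Values are read counts per gene divided by 1 size factor per library. The whole reads behind them numbered from 47289405 in NEG to 52826956 in MHC, summed over genes. Reads were counted over the whole gene, introns included, which matters here because 9 of the 10 members span 291 to 1244 kb and have 0.364% to 3.24% of their GENCODE M21 length in exons, against 33.5 kb for Cntn2. A gene is called higher or lower when it differed at least 2-fold on the log2(value + 1) scale and the larger of its values reached 20, which judges size and tests nothing. Among cell type markers, the summed value of 10 heart muscle genes was 14555 in GFP against 308792 in MHC and 9453 in NEG. Of the MHC sum, 186924 came from Myh6, the alpha myosin heavy chain gene whose promoter drives mCherry, which follows from the sort. The sum of 10 epicardial and mesothelial genes was 164800 in GFP against 6348 in MHC and 6154 in NEG. The 14 measured neuronal markers were split, with 4 higher and 3 lower in GFP than in MHC, and 3 and 3 against NEG. Nefh (122 in GFP against 15.2 and 7.91), Prph (518 against 239 and 204) and Dcx (21.9 against 1.01 and 10.2) were higher in both comparisons, Map2 and Isl1 lower. The Dcx interval for GFP against NEG, 0.968 to 5.27, holds 1. Tubb3, which shares reads with an overlapping gene, was lower in GFP than in NEG (77.7 against 368). Of 18 neuronal markers the sum was 1174 in GFP against 1296 in MHC and 1542 in NEG, with Nefl at 0 in MHC and NEG. For 10 glia and neural crest markers it was 12715, 2084 and 2267, with Foxd3 at 0 in GFP, Fabp7, Foxd3 and Sox10 at 0 in MHC and Fabp7 at 0 in NEG. Of its 6 measured genes, 5 were called higher in GFP than in MHC and 4 than in NEG, among them Mbp, which held 11557 of the GFP sum, Ngfr (420 in GFP against 39.5 in MHC and 107 in NEG) and Erbb3 (355, 116 and 58.7). Of 10 fibroblast and matrix markers, with a sum of 1358672 in GFP against 5260568 in MHC and 5277470 in NEG, 3 were higher and 6 lower in GFP than in MHC, and 3 and 5 against NEG. The sum of 8 endothelial markers was 850 in GFP against 4357 in MHC and 2751 in NEG, and of the 5 measured 1 was higher and 3 lower than in MHC, and 0 and 4 against NEG. The part of these cell types in the values below was not tested, and in sorted bulk samples fewer cells of a type and less RNA per cell cannot be told apart.

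The stretches that precede an annotated transcription start are shown for 4 genes that differed between libraries beyond counting error, Cntn2 (highest in GFP by far), Cntn5 (moderately higher in GFP), Ntm (highest in MHC) and Lsamp (highest in NEG). They are RefSeq sequences of GRCm38.p6, read 5′ to 3′ on the gene's strand and ending at the base before that start. The Ntm stretch lies inside the gene as the table gives it. Those of Cntn2 and Lsamp lie just outside the table's span but inside the longer M21 gene, the one of Lsamp 1.55 Mb past its M21 start. Only the Cntn5 stretch precedes the gene in both annotations. Bases that a GENCODE M21 exon covers are left out, which leaves 88 bases for Cntn2 and none for Opcml. Capitals mark the E-box CANNTG, which reads the same on both strands.
Cntn2, chr1:132542941-132543028, minus strand: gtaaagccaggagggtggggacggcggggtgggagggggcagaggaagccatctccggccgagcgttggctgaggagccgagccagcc
Cntn5, chr9:10904776-10905025, minus strand: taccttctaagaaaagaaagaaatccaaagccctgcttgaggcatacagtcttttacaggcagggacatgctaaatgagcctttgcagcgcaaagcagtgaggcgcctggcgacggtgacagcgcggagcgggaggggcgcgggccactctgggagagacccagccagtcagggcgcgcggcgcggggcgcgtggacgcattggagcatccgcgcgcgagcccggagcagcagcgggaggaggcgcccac
Ntm, chr9:29412686-29412935, minus strand: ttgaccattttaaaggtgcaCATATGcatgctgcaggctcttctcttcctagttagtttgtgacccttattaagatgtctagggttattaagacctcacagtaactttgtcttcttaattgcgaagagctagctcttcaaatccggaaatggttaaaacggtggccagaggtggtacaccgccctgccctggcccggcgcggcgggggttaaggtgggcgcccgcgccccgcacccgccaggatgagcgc
Lsamp, chr16:41532576-41532825, plus strand: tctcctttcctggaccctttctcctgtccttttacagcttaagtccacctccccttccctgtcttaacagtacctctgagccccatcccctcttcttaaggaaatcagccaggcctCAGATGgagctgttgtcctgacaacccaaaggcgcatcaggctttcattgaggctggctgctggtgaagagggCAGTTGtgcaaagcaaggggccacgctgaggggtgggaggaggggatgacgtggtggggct

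The GC content of these stretches was 71.6% for Cntn2, 64.8% for Cntn5, 53.6% for Ntm and 56.4% for Lsamp, against a median of 54.5% over 32851 RefSeq promoters for the last 88 bases and 52.4% for 250 bases. An E-box occurred 0 times in the Cntn2 and Cntn5 stretches, 1 time in that of Ntm and 2 times in that of Lsamp. Cntn4, which was higher in GFP than in NEG beyond counting error, had 4 in a 250-base stretch not shown. A 2nd Ntm stretch, also not shown, had 1. Whether E-boxes relate to the library where a gene is highest was not tested. Of all promoters, 30.7% hold an E-box in the last 88 bases and 66.2% in 250 bases. These matches describe letters and are not binding sites.

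Cntn2 stood alone among the contactins. Cntn2 (ENSMUSG00000053024, chr1:132509425-132542940, mm10, protein-coding) had 10989 reads in GFP against 225 in MHC and 181 in NEG. As normalised values these were 10045, 228 and 204, so that GFP was 44.1-fold (38.6 to 50.5) above MHC and 49.1-fold (42.4 to 57.2) above NEG, which follows from sorting on its reporter and is no finding. MHC and NEG lay 1.11-fold (0.912 to 1.36) apart, an interval that holds 1. Cntn2 made up 91.1% of the summed value of the 10 genes in GFP, 22.1% in MHC and 23.3% in NEG.

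No other contactin differed by that much. Cntn5 (ENSMUSG00000039488, chr9:9660891-10904775), a contactin of the auditory and visual pathways, had a value of 296 in GFP against 186 in MHC and 217 in NEG. Its GFP level was 1.59-fold (1.32 to 1.91) that of MHC and 1.37-fold (1.14 to 1.64) that of NEG, beyond counting error in either case but inside the 2-fold limit. Cntn4 (ENSMUSG00000064293, chr6:105677660-106699310), which binds the amyloid precursor protein App, had a value of 67.6 in GFP against 55.7 in MHC and 41.8 in NEG. GFP was highest again, 1.62-fold (1.08 to 2.47) above NEG, while the 1.21-fold (0.845 to 1.75) difference from MHC lay within counting error.

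The 3 remaining contactins were low, with no difference beyond counting error. Cntn1 (ENSMUSG00000055022, chr15:92051165-92341967), the paranodal contactin, had a value of 32.9 in GFP against 28.4 in MHC and 33.9 in NEG. Cntn3 (ENSMUSG00000030075, chr6:102163306-102464667) had 18 reads in GFP against 16 in MHC and 20 in NEG, and Cntn6 (ENSMUSG00000030092, chr6:104492790-104863406), which takes part in axon and glial development, 14, 12 and 13. All 9 pairwise intervals of these 3 genes hold 1. At this depth that limits the precision more than it shows equality: the Cntn6 interval for GFP against MHC runs from 0.452 to 2.49-fold. Summed over Cntn1, Cntn3, Cntn4, Cntn5 and Cntn6, the value was 426 in GFP against 299 in MHC and 330 in NEG.

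**Figure D1:**
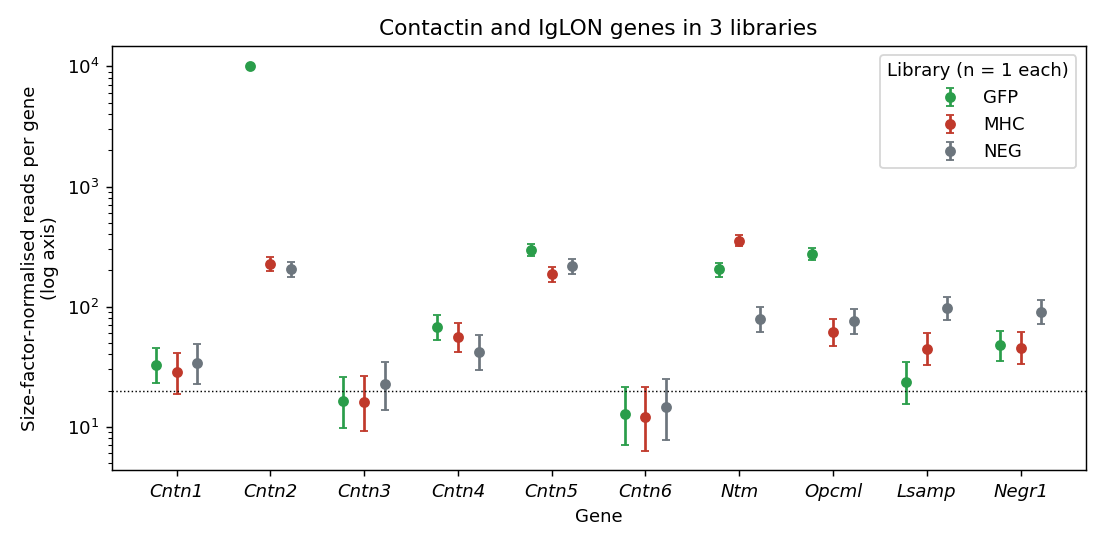
Normalised read count (log axis) of the 10 genes in the GFP, MHC and NEG libraries, 1 library each, with exact Poisson 95% intervals as bars and the minimum value of 20 as a dotted line. Cntn2 reaches 10045 in GFP, Opcml is highest in GFP, Ntm in MHC and Lsamp and Negr1 in NEG, while the intervals of Cntn1, Cntn3 and Cntn6 overlap between all libraries.

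The 4 IgLON genes differed in the library where they were highest, and 1 of them, Opcml, was higher in GFP than in both other libraries. Opcml (opioid-binding cell adhesion molecule, ENSMUSG00000062257, chr9:27790775-28925410) had 300 reads in GFP against 61 in MHC and 67 in NEG. Its normalised value of 274 in GFP was 4.44-fold (3.36 to 5.95) that of MHC at 61.8 and 3.62-fold (2.77 to 4.80) that of NEG at 75.7. MHC and NEG lay within counting error of each other, at 0.816-fold (0.567 to 1.17). The order of libraries was thus that of Cntn2 as far as the counts resolve it, at 4.44-fold and 3.62-fold in place of 44.1-fold and 49.1-fold. The epicardial and mesothelial markers were also at least 2-fold higher in GFP than in either other library, 10 of 10 of them, as were 5 of 6 measured glia and neural crest markers against MHC and 4 of 6 against NEG. Among 14 measured neuronal markers, 4 were higher against MHC and 3 against NEG, with 3 lower each time. The part of any of these markers in the Opcml difference was not tested.

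Ntm (neurotrimin, ENSMUSG00000059974, chr9:28994750-29963141) was highest in MHC. It had 223 reads in GFP against 350 in MHC and 70 in NEG, or values of 204, 355 and 79.1. MHC was 4.48-fold (3.46 to 5.88) and GFP 2.58-fold (1.96 to 3.42) above NEG, while MHC exceeded GFP 1.74-fold (1.47 to 2.07), so that all 3 intervals exclude 1. Ntm and Opcml are neighbours that point toward each other on chromosome 9 with 69.3 kb between them, yet the library with the highest value differs between them. Heart muscle markers were highest in MHC as well, 10 of 10 at least 2-fold above NEG and 9 of 10 at least 2-fold above GFP. Compared with NEG, GFP had 4 of them higher, 1 lower and 5 within 2-fold. Myh6 is among the 10, and its promoter drives the mCherry of the sort. Its excess in MHC thus follows from the sort and is no finding. The part of the heart muscle markers in the Ntm differences was not tested.

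Lsamp and Negr1 were highest in the cells without either reporter. Lsamp (limbic system-associated membrane protein, ENSMUSG00000061080, chr16:41532858-42181679) had a value of 23.8 in GFP against 44.6 in MHC and 97.1 in NEG, on 26, 44 and 86 reads. GFP was 4.09-fold (2.61 to 6.61) and MHC 2.18-fold (1.499 to 3.21) below NEG, and GFP was 1.88-fold (1.13 to 3.17) below MHC. The span of Lsamp in the table starts 1.55 Mb inside the M21 gene, so the first part of that gene is outside the counted span. Negr1 (neuronal growth regulator, ENSMUSG00000040037, chr3:156561794-157316445) had a value of 47.5 in GFP against 45.6 in MHC and 90.4 in NEG. It was 1.90-fold (1.32 to 2.75) lower in GFP and 1.98-fold (1.36 to 2.92) lower in MHC than in NEG, just short of the limit that Lsamp passes in MHC against NEG. Genes inside Negr1 held up to 15.6% of its reads, and with these subtracted Negr1 passed the limit in both comparisons. Of the fibroblast and matrix markers 5 of 10 were also lower in GFP than in NEG, with 3 higher, as were 4 of 5 measured endothelial markers, while in MHC against NEG 1 of each was lower and 1 endothelial marker higher. Neuronal markers were split, with 3 of 14 measured lower and 3 higher in GFP than in NEG, and 2 and 2 in MHC against NEG. Tubb3 was among the lower ones in both. The part of any of these markers in the Lsamp and Negr1 differences was not tested. The IgLON sum was 549 in GFP against 506 in MHC and 342 in NEG.

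Counted over the 10 genes, GFP against MHC gave 2 higher (Cntn2 and Opcml), 0 lower, 6 within 2-fold and 2 below the minimum value. Over all 20879 genes with enough reads, 15.6% were higher in GFP and 16.4% lower, and 1 of the 7 members besides Cntn2 that reached the minimum is close to those shares. In GFP against NEG, 3 were higher (Cntn2, Opcml and Ntm), 1 was lower (Lsamp), 5 lay within 2-fold and 1 was below the minimum, with 14.1% of all genes higher and 15.0% lower. Besides Cntn2, whose call follows from the sort, 8 members reached the minimum there, with Opcml and Ntm higher and Lsamp lower. Between MHC and NEG, 1 gene was higher in MHC (Ntm), 1 was lower (Lsamp), 7 lay within 2-fold and 1 was below the minimum, against 5.35% and 5.21% of all genes. Without Cntn2 the median log2 ratio of the 9 was 0.069 for GFP against MHC, −0.041 for GFP against NEG and −0.25 for MHC against NEG. All genes with enough reads had medians of 0.012, 0.017 and −0.015. Any 2 of these comparisons share a library, so they are not independent.

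**Figure D2:**
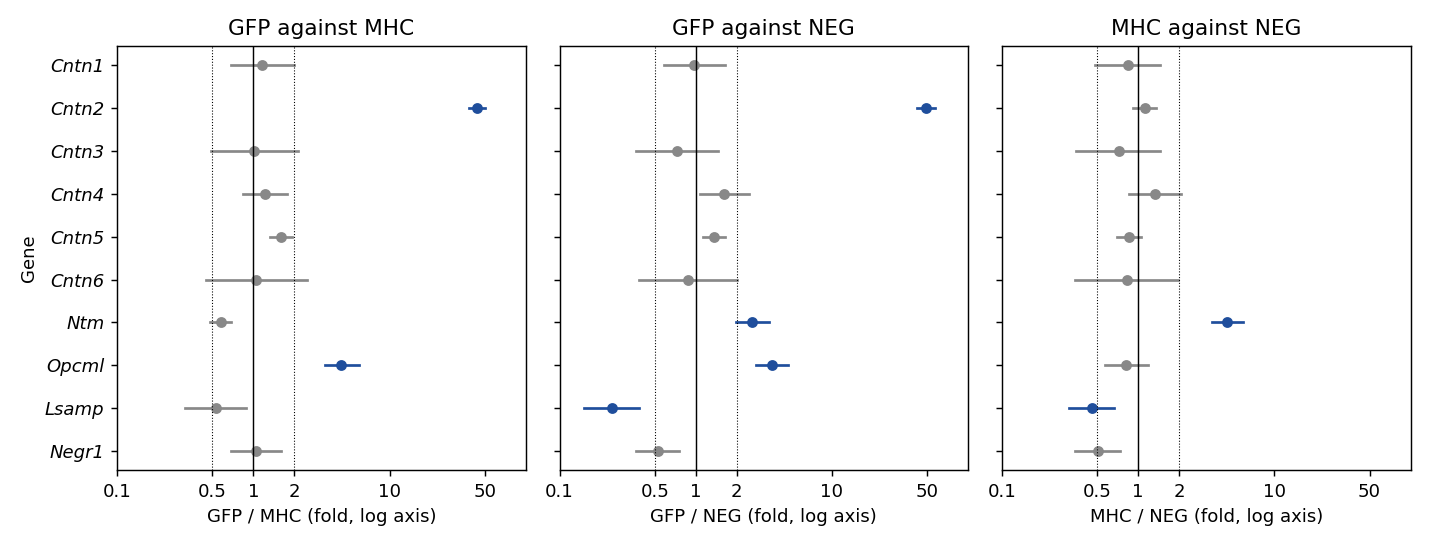
Fold between libraries for each of the 10 genes (log axis) with exact 95% intervals of counting error, in blue where the 2-fold rule with a minimum value of 20 is met and in grey elsewhere; dotted lines mark 2-fold. Opcml is 4.44-fold above MHC and 3.62-fold above NEG in GFP, Ntm is 4.48-fold higher in MHC than in NEG, and Lsamp is 4.09-fold lower in GFP than in NEG.

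Because most of these genes are very long, levels were set against each other per kb of gene span. In GFP, Cntn2, itself only 33.5 kb long, had 299.7 normalised reads per kb. That was above 99.5% of 2359 protein-coding genes of 100 kb or more that are not members. The next in order were Opcml at 0.242 per kb (0.215 to 0.271), Cntn5 at 0.238 (0.213 to 0.265) and Ntm at 0.210 (0.184 to 0.240), whose intervals overlap, and they lay above 18.7% to 19.6% of the long genes. Cntn1 followed at 0.113, then Cntn4, Negr1 and Cntn3 at 0.066, 0.063 and 0.055, and Lsamp and Cntn6 were lowest at 0.037 and 0.035. The median long gene had 4.00 per kb in GFP, and all 9 lay below the first quartile of 0.431. Ntm led the 9 in MHC with 0.366 per kb and Cntn5 in NEG with 0.174, and Opcml stood at 0.054 and 0.067 in those libraries.

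Cntn2 itself was not near the bottom outside GFP on this scale. Its 6.80 reads per kb in MHC exceeded 59.9% of the long genes and its 6.10 in NEG 56.6%. Per kb of exon, however, Cntn2 had 24.5 in MHC, below Ntm at 43.9 and Cntn5 at 41.1, and exceeded 27.2% of long genes there and 26.3% in NEG. The place of Cntn2 outside GFP thus depends on the length used, whereas in GFP it was first of the 10 on either length. Per kb of exon, Cntn2 exceeded 93.2% of long genes in GFP. The order of the genes after Cntn2 in GFP also depended on the length. Per kb of exon, Cntn5 had 65.4, Ntm 25.2 and Opcml 18.9. Whether the reads of the other 9 come from exons or introns is not resolved by the table. Over all long genes with enough reads, the median log2 ratio was 0.029 for GFP against MHC, 0.033 for GFP against NEG and −0.010 for MHC against NEG.

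**Figure D3:**
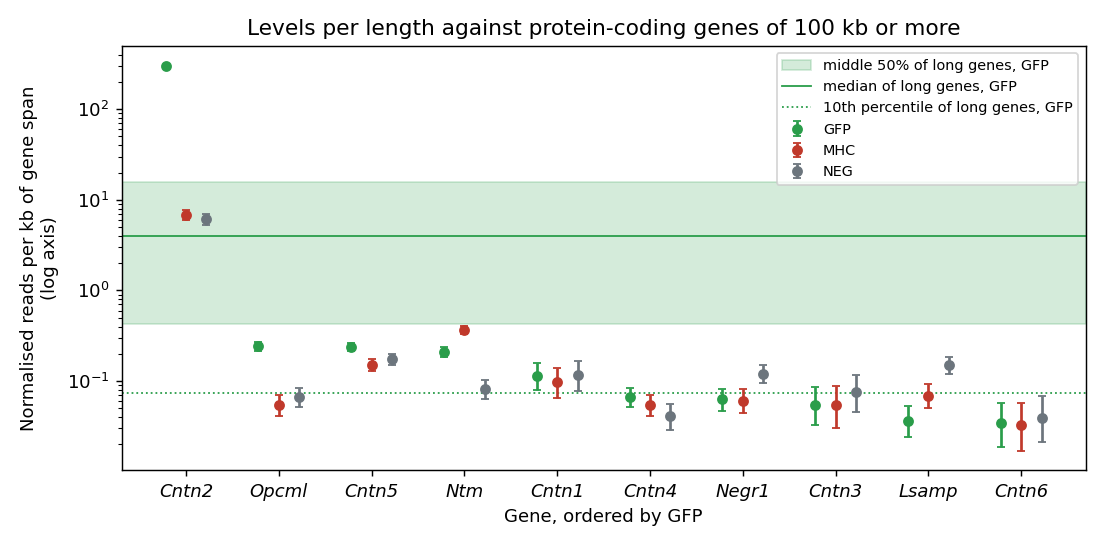
Normalised reads per kb of gene span (log axis) for the 10 genes in each library with exact Poisson 95% intervals, ordered by GFP; the shaded band, line and dotted line give the middle 50%, median and 10th percentile of protein-coding genes of 100 kb or more in GFP. Cntn2 lies at 299.7 in GFP, and the other 9 genes lie below the first quartile of 0.431 in every library.

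The genes with a pattern most like that of Cntn2 were not of its family. Likeness was the distance in the plane of the log2 ratios of GFP to MHC and of GFP to NEG over the 3 libraries, among protein-coding genes with a value of 100 or more in some library. The nearest 5 were Elavl2 (distance 0.10), an RNA-binding protein gene of neurons, the claudin gene Cldn15 (0.19), the butyrylcholinesterase gene Bche (0.21), Lrrn4 (0.27), a gene of mesothelial cells, and the kinase gene Map3k9 (0.28). Bche had a value of 15654 in GFP against 309 in MHC and 307 in NEG, and Cldn15 had 7227, 165 and 167. At a pseudocount of 10, 3 of these 5 remained among the nearest. Opcml, at a distance of 5.02, had 703 of 13471 such genes nearer to Cntn2 than itself (5.22%), Cntn5 had 24.6% nearer and Ntm 42.1%. Members with a highest value below 100 were placed against the same genes. Cntn4 had 27.6% nearer, Cntn1 48.4%, Cntn6 56.6%, Cntn3 64.7%, Negr1 74.8% and Lsamp 90.5%. For scale, 1489 of the 13471 genes (11.1%) were at least 2-fold higher in GFP than in both other libraries. Both axes share the GFP library, so the 2 ratios are not independent.

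**Figure D4:**
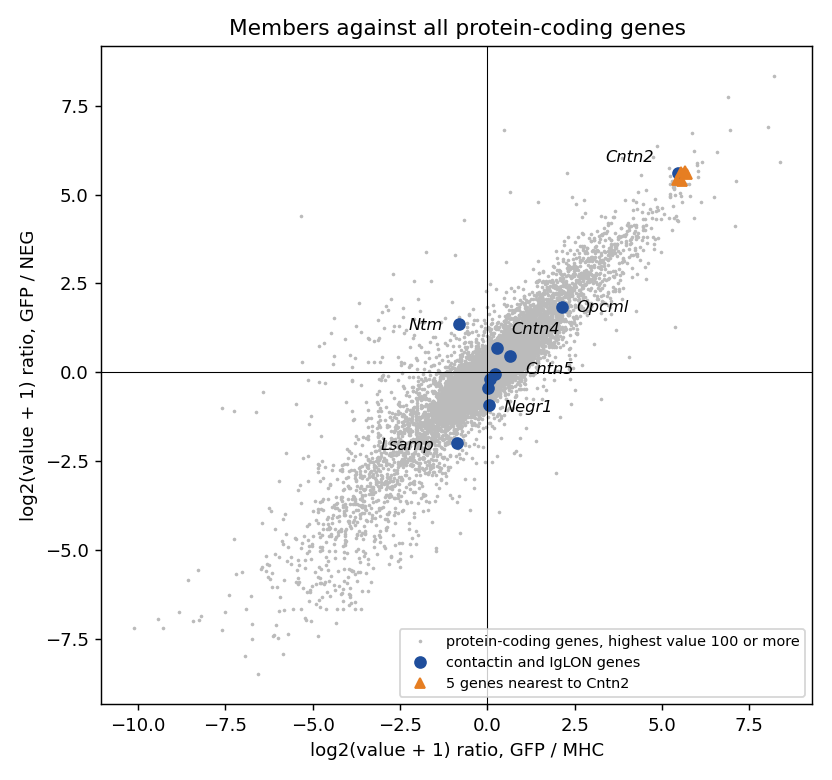
Log2(value + 1) ratio of GFP to MHC (x axis) and of GFP to NEG (y axis) for protein-coding genes with a highest value of 100 or more (grey), the 10 contactin and IgLON genes (blue) and the 5 genes nearest to Cntn2 (orange). Opcml lies on the diagonal between the origin and Cntn2, Ntm to the left of it, and Lsamp below the origin.

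The binding partners of contactins varied in direction and size. Of 19 measured genes, 1 was higher in GFP than in MHC, 4 were lower and 14 lay within 2-fold, with a median log2 ratio of −0.14, against 15.6% higher and 16.4% lower of all genes. Chl1, an L1-family adhesion gene that lies on chromosome 6 between Cntn3 and Cntn6, was the higher gene at 41.1 in GFP against 18.2 in MHC and 9.04 in NEG. Cntnap2, the partner of contactin 2, had a value of 8062 in GFP against 9752 in MHC and 6769 in NEG, 0.827-fold in GFP against MHC. Ptprz1, a phosphatase receptor of contactin 1, was highest in NEG, at 3474 in GFP against 2031 in MHC and 16790 in NEG. The lowest ratios were those of the semaphorin receptor gene Nrp1, with 934 in GFP against 9427 in MHC, and of Nrcam, another L1-family gene, with 20.1 against 132. Against NEG, 2 partners were higher in GFP (Chl1 and Aplp1) and 5 lower, with 14.1% and 15.0% of all genes. Cntnap2 and Aplp1 were named after their values were seen.

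Other surface genes of related kinds went in both directions. Among 28 other measured immunoglobulin adhesion genes, Iglon5 included, 9 were higher in GFP than in MHC and 8 lower (median −0.09), against the 15.6% and 16.4% of all genes. The highest were the nectin-like gene Cadm4, at 9853 in GFP against 647 in MHC and 681 in NEG, and the nectin gene Pvrl2, which is uncertain because an overlapping gene holds part of its reads, at 9888, 1344 and 1524. The lowest were the neural cell adhesion molecule gene Ncam1, uncertain for the same reason, with 591 in GFP against 7413 in MHC, and the Slit receptor gene Robo1 with 212 against 2661. Iglon5, the remaining IgLON gene, had a value of 98.7 in GFP against 84.1 in MHC and 62.1 in NEG and lay within 2-fold in each comparison.

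Other genes for GPI-anchored surface proteins also lay on both sides. Of 40 measured, 10 were higher and 16 lower in GFP than in MHC (median −0.56), and 11 were higher and 18 lower than in NEG (median −0.69). Of all genes, 15.6% were higher and 16.4% lower in GFP than in MHC, and 14.1% and 15.0% against NEG. The folate receptor gene Folr1, at 5180 in GFP against 282 in MHC and 341 in NEG, and the complement regulator gene Cd55, at 3930, 405 and 752, had the highest ratios. At the other end, the alkaline phosphatase gene Alpl had a value of 355 in GFP against 38345 in MHC and 64645 in NEG, and the ectonucleotidase gene Nt5e 146, 5230 and 4987. The genes that build and attach the anchor were counted next. Of 28 measured, 5 were higher and 1 lower in GFP than in MHC and 22 lay within 2-fold (median 0.27). The higher share is near the 15.6% of all genes, while the lower share is below the 16.4% of all genes. Against NEG 2 were higher and 0 lower (median 0.10), both below the 14.1% and 15.0% of all genes. Pgap1, which trims the anchor after attachment, was highest by ratio at 569 in GFP against 158 in MHC and 217 in NEG, and Piga, which acts in the first step of anchor synthesis, lowest at 357, 750 and 490. Pigw was 124 in GFP against 43.6 in MHC and Pigc 931 against 1581, and 12 of the 28, these 2 included, share reads with an overlapping gene.

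**Figure D5:**
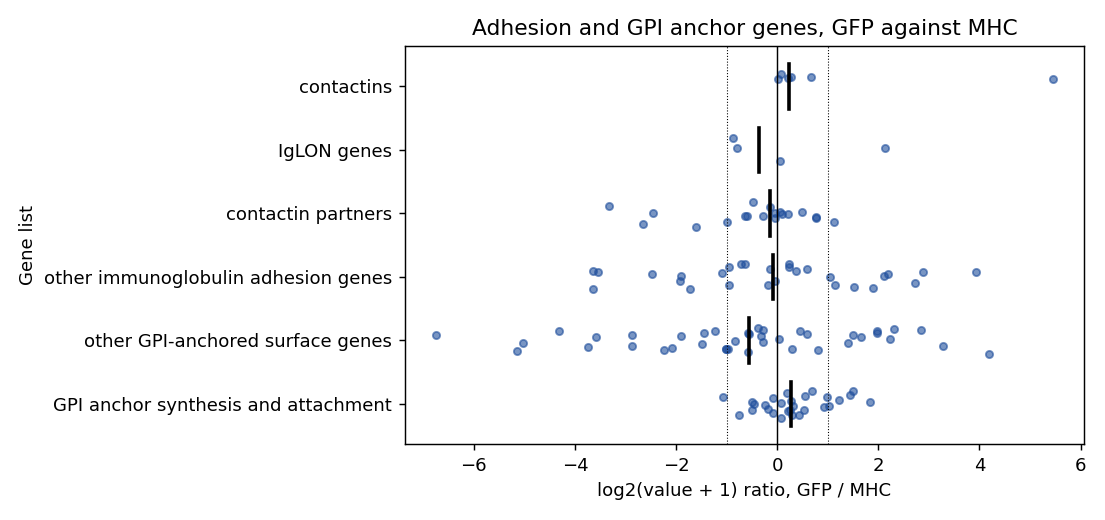
Log2(value + 1) ratio of GFP to MHC for each measured gene of 6 lists (points, spread vertically for visibility) with list medians as black bars and 2-fold as dotted lines. Contactins other than Cntn2 cluster near 0, and the 40 other GPI-anchored surface genes spread on both sides with a median of −0.56.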

How the data were processed

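RNA of 3 sorted populations, 1 library each, was analysed from values the authors deposited. The submitters' processing notes name the build mm10 and DESeq2 1.2.10, bedtools 2.17.0, STAR 2.3.0e and FastQC 0.11.2, with no role for any of them. The deposited signal value is a read count divided by a size factor. In each library 100% of values were whole multiples (tolerance 0.01) of the value of 1 read, so whole reads were recovered. Single libraries leave no residual degrees of freedom, so a count model could not be fitted to these reads and gives no calls.

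Of 39179 genes, 37607 were found in GENCODE M21. Genes of 300 or more reads inside a host's intron never exceeded the host's count (422 pairs on the same strand, 559 on the opposite strand), so reads were taken as counted over whole spans on both strands. A gene overlapped by another holding 25% or more of its reads is uncertain, and none of the 10 is.

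Intervals are exact (Clopper-Pearson for folds, Poisson for levels) and cover counting error only, since PCR copies cannot be told from separate molecules. List genes count as measured when their mean value reached 10, with 1 entry per symbol. Members and lists were chosen with earlier results of these data known. From each related list, the 2 highest and 2 lowest ratios of GFP to MHC were named. No such rule covered the single cell type markers that are named. The computation was tested on simulated reads. Python 3.11.15 and SciPy 1.17.1 were used.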

Additional observations from a re-analysis of the deposited data

How the results depend on the processing

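No paired analysis was possible because each population had 1 library, and no library could be left out for the same reason. Under 9 alternatives (other pseudocounts, minimum values, fold limits and scalings, and subtraction of genes inside a member), no called log2 ratio of the 10 genes changed sign. By construction 6 of the 9 can alter a ratio, and the 156 ratios they altered, 6 of them by subtraction, all stayed within their counting intervals. Opcml stayed higher in GFP than in both other libraries and Ntm higher in MHC than in NEG in each of them. Of the lower calls, those of Lsamp were lost at a minimum value of 100, which leaves 0 lower genes in GFP and in MHC against NEG, and a pseudocount of 10 also left 0 in MHC against NEG. Subtracting genes inside a member gave 2 lower genes in each of these comparisons, Lsamp and Negr1. A limit of 1.5-fold gave 2 lower genes in every comparison (Ntm and Lsamp in GFP against MHC, Lsamp and Negr1 against NEG) and 3 higher in GFP against MHC, with Cntn5 added, and 4 in GFP against NEG, with Cntn4 added. Over all genes, 3253 were higher and 3415 lower in GFP against MHC, 2933 and 3122 in GFP against NEG, and 1101 and 1071 in MHC against NEG. At 1.5-fold these became 5474 and 5445, 4884 and 4915, and 2503 and 2678. No minimum value gave 5398 and 7098, 5148 and 6343, and 4433 and 3936. A minimum of 100 gave 2377 higher and 2181 lower in GFP against MHC, 2108 and 1962 in GFP against NEG, and 626 higher and 597 lower in MHC against NEG. Scaling to the summed reads moved the median of all measured genes by 0.17 for GFP against MHC and by 0.16 against NEG. It gave 4042 higher and 2940 lower, and 3579 and 2693. Under both of the last settings the balance of directions thus turned in both GFP comparisons. At 1.5-fold it turned for GFP against MHC and for MHC against NEG. Scaling to the upper quartile of protein-coding genes turned it for MHC against NEG, with 1073 higher and 1097 lower. With exonic length, 93.2% of long genes lay below Cntn2 in GFP, 27.2% in MHC and 26.3% in NEG. Cntn6 had 12 to 14 reads per library, which left an interval as wide as 0.345-fold to 1.97-fold (MHC against NEG).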
